A study of Homo sapiens with 24 samples.

Results

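The 7 genes PLAU, PLAT, PLAUR, SERPINB2, F3, TFPI2 and THBD encode proteases, receptors and inhibitors that control plasminogen activation and the start of blood coagulation. They are 7 of the 22260 genes named on the arrays, and each was measured by the probe sets that the platform annotation gives to its symbol alone. Gene expression was measured on Affymetrix Human Gene 2.0 ST arrays, 24 in all, in AC16 cells, a single immortalized human line that the labels describe as ventricular cardiomyocytes. All groups had first been synchronized with 100 nM dexamethasone for 2 h, a glucocorticoid that resets circadian clocks in culture, so untreated and vehicle cells carry that exposure too. Digoxin is a cardiac glycoside that blocks the sodium potassium pump. The 8 groups of 3 arrays were vehicle, 0.5 µM and 5 µM digoxin at T4, vehicle, 0.5 µM and 5 µM digoxin at T20, and untreated cells at T16 and T0. The labels do not say what the vehicle was. Their descriptions call the cells of the vehicle and digoxin samples untreated while also naming the treatment, and groups follow the treatment named in the titles. The sample labels put the treated groups of both times 4 h after treatment, whereas the growth protocol has lysis at 4, 16 and 20 h after treatment, so the length of exposure at T20 is not settled. The labels do not say that replicates were separate cultures, so the p-values reflect only how far these arrays spread, and that spread may be technical.

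Plasminogen circulates as an inactive precursor and is cut to plasmin, which dissolves fibrin and degrades matrix, by the proteases encoded by PLAU (urokinase) and PLAT (tissue plasminogen activator). PLAUR encodes the receptor that holds urokinase at the cell surface, and SERPINB2 encodes plasminogen activator inhibitor type 2, a serpin that blocks urokinase and tissue plasminogen activator. F3 encodes tissue factor, the receptor for factor VII that starts coagulation. TFPI2 encodes a Kunitz-type inhibitor of plasmin and other serine proteases that is deposited in the matrix, and THBD encodes thrombomodulin, which turns thrombin towards activating protein C.

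The 250 bases before the start site are shown for the 5 of 7 members matched to the promoter table, whatever their changes. Of these 5, 4 (F3, SERPINB2, PLAUR and PLAU) fell at T16 against T0, as described below, and TFPI2 was called in every comparison of digoxin with vehicle. PLAT fell at T16 too but, like THBD, was not matched. Sequences are from RefSeq on build GRCh38.p14, in the direction of the gene. PLAU lies at chr10:73910882-73911131 on the plus strand, PLAUR at chr19:43670170-43670419 on the minus strand and SERPINB2 at chr18:63887455-63887704 on the plus strand. F3 lies at chr1:94541760-94542009 on the minus strand and TFPI2 at chr7:93890754-93891003 on the minus strand. Capitals mark the letters TGANTCA, recognized by the AP-1 dimers of FOS and JUN proteins.
F3: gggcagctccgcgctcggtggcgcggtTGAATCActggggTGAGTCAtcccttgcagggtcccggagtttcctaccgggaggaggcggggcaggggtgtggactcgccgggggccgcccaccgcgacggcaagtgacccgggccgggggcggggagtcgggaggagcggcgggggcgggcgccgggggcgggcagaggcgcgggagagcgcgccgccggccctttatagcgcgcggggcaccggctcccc
SERPINB2: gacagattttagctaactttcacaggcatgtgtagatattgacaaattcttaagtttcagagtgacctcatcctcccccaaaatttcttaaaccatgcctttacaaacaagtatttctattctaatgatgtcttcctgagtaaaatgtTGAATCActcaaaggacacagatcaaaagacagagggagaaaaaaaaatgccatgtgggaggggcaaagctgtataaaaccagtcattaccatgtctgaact
PLAUR: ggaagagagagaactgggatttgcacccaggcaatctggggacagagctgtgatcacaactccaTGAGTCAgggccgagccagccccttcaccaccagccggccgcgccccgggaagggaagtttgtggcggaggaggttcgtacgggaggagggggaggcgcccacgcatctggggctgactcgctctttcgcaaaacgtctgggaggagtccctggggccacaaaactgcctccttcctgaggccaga
TFPI2: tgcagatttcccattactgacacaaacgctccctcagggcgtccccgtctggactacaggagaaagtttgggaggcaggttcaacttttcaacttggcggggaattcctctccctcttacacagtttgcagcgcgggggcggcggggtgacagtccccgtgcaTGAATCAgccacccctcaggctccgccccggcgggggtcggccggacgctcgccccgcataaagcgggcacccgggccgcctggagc
PLAU: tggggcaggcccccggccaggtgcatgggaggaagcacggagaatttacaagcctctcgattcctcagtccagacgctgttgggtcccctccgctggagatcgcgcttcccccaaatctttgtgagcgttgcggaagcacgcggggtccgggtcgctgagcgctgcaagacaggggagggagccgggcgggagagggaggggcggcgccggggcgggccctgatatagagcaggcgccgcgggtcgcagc

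TGANTCA starts at positions -223 and -210 in F3, -186 in PLAUR, -102 in SERPINB2 and -87 in TFPI2, where -1 is the base before the start site, and it is not in this window of PLAU. Of 35116 promoter windows of the same length, 6.57% hold it on either strand. Other motifs were searched on both strands in the same windows. The NF-kB letters GGANTTTCC were found in F3 alone among the 5, at -187 (1.45% of all windows). TATAAA was found in SERPINB2 at -30 in the direction of the gene, and in F3 at -28 on the opposite strand only (10.7%). The EGR1 letters GCGNGGGCG were found in PLAUR, F3 and TFPI2 (8.41%). GGGCGG was found in PLAU, F3 and TFPI2 (42.6%) and overlapped the EGR1 match in F3 and TFPI2. CACGTG (6.34%), TGACGTCA (1.65%) and the glucocorticoid response element (0.327%) were found in none of the 5. A match describes letters and not a bound site. A single letter pattern was searched per motif, so other forms of a site may be present where no match was found.

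Values are log2 gene values, each the summary of a gene's probe sets after quantile normalization, and the level of one gene is not set against that of another. Differences carry the standard error (SE) of a limma fit over all 24 arrays, and a gene was called at an adjusted p under 0.05 over the 11764 genes tested. Of the 7 members, 6 were tested. Replicate arrays correlated at 0.991 to 0.995. Of 19 cardiomyocyte markers, GATA4 alone passed the filter on low values, whereas 11 of 12 fibroblast markers, 4 of 6 smooth muscle markers, 1 of 9 endothelial markers and 0 of 8 leukocyte markers did, so most defining markers of the labelled cell type were low. Under 5 µM digoxin 3 of the 11 fibroblast markers that passed fell at T4 and 0 rose, where 12.9% of all genes fell and 9.18% rose. At T20, 0 of them rose or fell. The mean level of the fibroblast marker set by group spanned 10.31 to 11.33. Smooth muscle markers spanned 7.23 to 7.64, and 2 of the 4 that passed rose under 5 µM at T4. At T20, 2 rose and 1 fell, where 12.9% of all genes rose and 13.2% fell. The part of these markers in the results was not tested. In bulk RNA, fewer cells of a type and less RNA per cell cannot be told apart.

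The 24 poly-A control probe sets read 0.36 higher under 5 µM digoxin than in vehicle at T4 and 0.81 higher at T20, and 0.30 and 0.44 higher under 0.5 µM. The 18 hybridization control probe sets, which are added after labelling, moved as well, by 0.06 and 0.36 under 5 µM at T4 and T20, by 0.08 and 0.18 under 0.5 µM, and by -0.25 in T20 vehicle against T16. Arrays were also centred on the poly-A controls (the poly-A scale). The median difference over all tested genes was then -0.38 and -0.82 under 5 µM at T4 and T20, and -0.27 and -0.42 under 0.5 µM. Whether equal amounts of control were added is not stated, and its part in the results was not tested. Values on the poly-A scale stand beside many of the changes below, and a change without one is not thereby shown to hold on that scale.

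Under 5 µM digoxin at T4, 3 of the 6 tested members rose (PLAT, SERPINB2 and TFPI2) and 1 fell (PLAU), where 9.18% of all genes rose and 12.9% fell. Under 0.5 µM at T4, TFPI2 rose and PLAU fell, where 5.21% of all genes rose and 4.55% fell. At T20, SERPINB2, TFPI2 and F3 rose under 5 µM, although F3 was below 0 on the poly-A scale, where 12.9% of all genes rose and 13.2% fell. PLAUR, SERPINB2 and TFPI2 rose under 0.5 µM at T20, with PLAUR below 0 on the poly-A scale, where 5.98% of all genes rose and 4.79% fell. The median difference over the 6 members under 5 µM was 0.29 at T4 and 0.47 at T20, and over all genes -0.01 at both times. Under 0.5 µM it was 0.29 and 0.23, and over all genes 0.01 at both times. The doses at one time share their vehicle arrays. With the median of a gene's probe sets in place of median polish, 0 members were called under 5 µM at T4, 0 under 0.5 µM at T4 or T20, and 2 under 5 µM at T20.

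**Figure D1:**
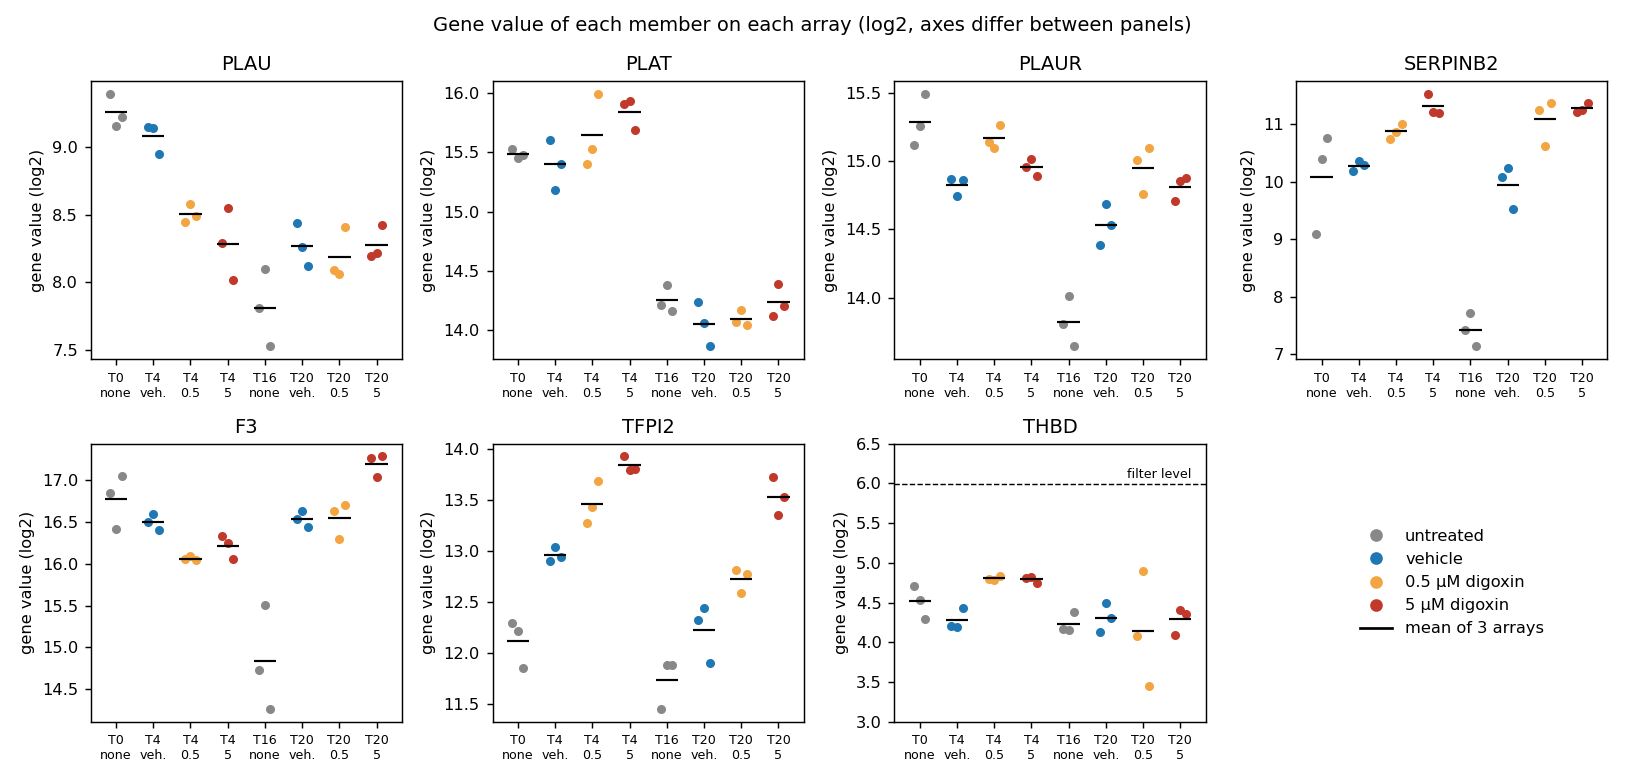
Gene value (log2, vertical axis, scaled separately in each panel) of each member on each of the 24 arrays, by group along the horizontal axis; points are arrays and lines are means of 3. SERPINB2, F3, PLAUR, PLAU and TFPI2 have their lowest group mean at T16, and THBD lies below the filter level of 6.00 in every group.

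PLAU, urokinase, fell with digoxin at T4. Its gene value was 9.15, 9.14 and 8.95 in vehicle arrays at T4, 8.45, 8.58 and 8.49 under 0.5 µM and 8.29, 8.55 and 8.02 under 5 µM. Every digoxin array lay below every vehicle array. The differences were -0.57 ± 0.14 for 0.5 µM (SE, adjusted p = 0.0150) and -0.79 ± 0.14 for 5 µM (adjusted p = 5.51e-04). On the poly-A scale they were -0.85 and -1.18, and both were called. Of 16 probe sets, 13 were lower under each dose. At T20 it read 8.44, 8.26 and 8.12 in vehicle, 8.09, 8.06 and 8.41 under 0.5 µM and 8.20, 8.22 and 8.42 under 5 µM, and the arrays overlapped. The differences at T20 were -0.08 ± 0.14 (adjusted p = 0.781) and 0.01 ± 0.14 (adjusted p = 0.981, 95% interval -0.30 to 0.31), but on the poly-A scale the 5 µM difference was -0.82 (adjusted p = 0.00102). The 0.5 µM call at T4 was lost without vehicle replicate 1 or 2 or 0.5 µM replicate 1 (adjusted p up to 0.0598).

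PLAT, tissue plasminogen activator, rose at T4 under the higher dose. It had 15.61, 15.19 and 15.41 in vehicle arrays, 15.40, 15.53 and 15.99 under 0.5 µM and 15.91, 15.93 and 15.69 under 5 µM. The 5 µM arrays all stood above vehicle, whereas the 0.5 µM arrays overlapped it. The difference was 0.44 ± 0.14 for 5 µM (adjusted p = 0.0248) and 0.24 ± 0.14 for 0.5 µM (adjusted p = 0.295), and on the poly-A scale these were 0.08 (adjusted p = 0.755) and -0.05. Of its 23 probe sets, 21 were higher under 5 µM at T4, with differences from -0.87 to 1.13. The call was lost without vehicle replicate 2 or 3 or 5 µM replicate 1 or 2 (differences from 0.34 to 0.55, adjusted p up to 0.128), and in 5 of 13 other settings. At T20 it had 14.24, 14.06 and 13.87 in vehicle, 14.07, 14.17 and 14.05 under 0.5 µM and 14.12, 14.39 and 14.21 under 5 µM, with overlap. The differences at T20 were 0.04 ± 0.14 (adjusted p = 0.894) and 0.19 ± 0.14 (adjusted p = 0.342), and on the poly-A scale the 5 µM one was -0.63 (adjusted p = 0.00729).

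PLAUR, the urokinase receptor, was called in 1 of the 4 digoxin comparisons, although its digoxin arrays stood above vehicle in all 4. At T4 its value was 14.87, 14.75 and 14.86 in vehicle, 15.14, 15.10 and 15.26 under 0.5 µM and 14.95, 15.02 and 14.89 under 5 µM. The differences at T4 were 0.34 ± 0.11 for 0.5 µM (adjusted p = 0.0635, 0.05 on the poly-A scale) and 0.13 ± 0.11 for 5 µM (adjusted p = 0.474, -0.23 on the poly-A scale). At T20 it had 14.39, 14.68 and 14.53 in vehicle, 15.00, 14.76 and 15.10 under 0.5 µM and 14.71, 14.85 and 14.88 under 5 µM. All 6 digoxin arrays stood above the 3 vehicle arrays of T20. The 0.5 µM rise at T20 was 0.42 ± 0.11 (adjusted p = 0.0220), with 9 of 10 probe sets higher, and on the poly-A scale it was -0.02 (adjusted p = 0.931). For 5 µM at T20 the difference was 0.28 ± 0.11 (adjusted p = 0.0767), against -0.53 on the poly-A scale (adjusted p = 0.0141). The call was lost without vehicle replicate 1 or 3 or 0.5 µM replicate 1 or 3 (adjusted p up to 0.103), and with the median of the probe sets the difference was 0.07.

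SERPINB2, the inhibitor of both activators, rose under 5 µM digoxin at both times and under 0.5 µM at T20. Its value at T4 was 10.19, 10.37 and 10.28 in vehicle, 10.75, 10.86 and 11.01 under 0.5 µM and 11.53, 11.22 and 11.20 under 5 µM. At T20 it was 10.07, 10.23 and 9.53 in vehicle, 11.25, 10.62 and 11.37 under 0.5 µM and 11.21, 11.25 and 11.37 under 5 µM. Every digoxin array stood above every vehicle array of its time. The rise under 5 µM was 1.04 ± 0.30 at T4 (adjusted p = 0.0167) and 1.33 ± 0.30 at T20 (adjusted p = 0.00240). Under 0.5 µM it was 1.14 ± 0.30 at T20 (adjusted p = 0.0176), and the difference at T4 was 0.59 ± 0.30 (adjusted p = 0.235), which was not called. On the poly-A scale the sign held and none was called, with 0.67 and 0.51 for 5 µM at T4 and T20 (adjusted p = 0.0948 and 0.124) and 0.69 for 0.5 µM at T20 (adjusted p = 0.0793). Of its 9 own probe sets, 8 were higher under 5 µM at T4 and 9 at T20. Another 5 probe sets are shared with the neighbouring serpin gene SERPINB10 and were left out of the gene value, and all 5 were higher in each of the 4 comparisons. With these included, an alternative chosen after seeing the data, the 0.5 µM difference at T4 was 0.57 and was called (adjusted p = 0.0199), as it was on fitting only the groups compared (adjusted p = 0.0232). The 5 µM call at T4 was lost without vehicle replicate 1 or 5 µM replicate 1 (adjusted p up to 0.0674), and the 0.5 µM call at T20 without vehicle replicate 3 or 0.5 µM replicate 1 or 3 (adjusted p up to 0.0870).

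F3, tissue factor, stood below vehicle with digoxin at T4 and above it under 5 µM at T20, and the T20 difference alone was called. At T4 it had 16.50, 16.59 and 16.40 in vehicle, 16.05, 16.09 and 16.04 under 0.5 µM and 16.33, 16.24 and 16.05 under 5 µM. All 6 digoxin arrays lay below the vehicle arrays, with differences of -0.44 ± 0.21 for 0.5 µM (adjusted p = 0.222) and -0.29 ± 0.21 for 5 µM (adjusted p = 0.377). At T20 it had 16.53, 16.63 and 16.43 in vehicle, 16.63, 16.29 and 16.70 under 0.5 µM and 17.26, 17.04 and 17.28 under 5 µM. The 5 µM arrays lay above all others of T20, and the 0.5 µM arrays overlapped vehicle (difference 0.01 ± 0.21, adjusted p = 0.986). The rise under 5 µM at T20 was 0.66 ± 0.21 (adjusted p = 0.0262), but on the poly-A scale it was -0.15 (adjusted p = 0.536), and the 5 µM difference at T4 was -0.67 there (adjusted p = 0.0315). All 9 probe sets of F3 were lower under 5 µM at T4 and all 9 were higher at T20. The T20 call was lost without vehicle replicate 1 or 3 or 5 µM replicate 1 or 3 (differences from 0.62 to 0.74, adjusted p up to 0.0790).

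TFPI2, the matrix-bound inhibitor, was the 1 member called in all 4 digoxin comparisons. Its value at T4 was 12.90, 13.04 and 12.93 in vehicle, 13.27, 13.42 and 13.69 under 0.5 µM and 13.92, 13.79 and 13.81 under 5 µM. At T20 it was 12.32, 12.44 and 11.90 in vehicle, 12.81, 12.59 and 12.77 under 0.5 µM and 13.72, 13.35 and 13.52 under 5 µM. At both times the 3 groups did not overlap and stood in the order of dose. The rise under 5 µM was 0.88 ± 0.15 at T4 (adjusted p = 3.56e-04) and 1.31 ± 0.15 at T20 (adjusted p = 3.68e-06), and all 11 probe sets were higher at both times. Under 0.5 µM it was 0.50 ± 0.15 at T4 (adjusted p = 0.0434) and 0.50 ± 0.15 at T20 (adjusted p = 0.0414). On the poly-A scale the 5 µM differences were 0.51 and 0.51 (adjusted p = 0.0648 and 0.0282), and the 0.5 µM differences were 0.20 and 0.07. The 0.5 µM call at T4 was lost without any vehicle replicate or without 0.5 µM replicate 2 or 3 (adjusted p up to 0.180), and that at T20 without vehicle replicate 1 or 3 or any 0.5 µM replicate (up to 0.202). The 0.5 µM calls were also lost in 10 of 13 other settings at T4 and 8 of 13 at T20, whereas the 5 µM call at T20 was lost in 0 of 13.

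THBD, thrombomodulin, lay below the filter level of 6.00 in every group and was not tested. At T4 it read 4.20, 4.20 and 4.43 in vehicle, 4.80, 4.79 and 4.83 under 0.5 µM and 4.80, 4.82 and 4.75 under 5 µM, and the digoxin arrays stood above vehicle. Without the filter these differences were 0.53 ± 0.22 for 0.5 µM (adjusted p = 0.267) and 0.51 ± 0.22 for 5 µM (adjusted p = 0.197), and limma called it in 0 comparisons. At T20 it read 4.13, 4.49 and 4.31 in vehicle, 4.08, 4.90 and 3.45 under 0.5 µM and 4.09, 4.41 and 4.36 under 5 µM, and all overlapped. Untreated cells had 4.16, 4.16 and 4.38 at T16 and 4.71, 4.53 and 4.30 at T0. All 4 of its probe sets lay below the median level, so a low transcript level and weak probes cannot be told apart.

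**Figure D2:**
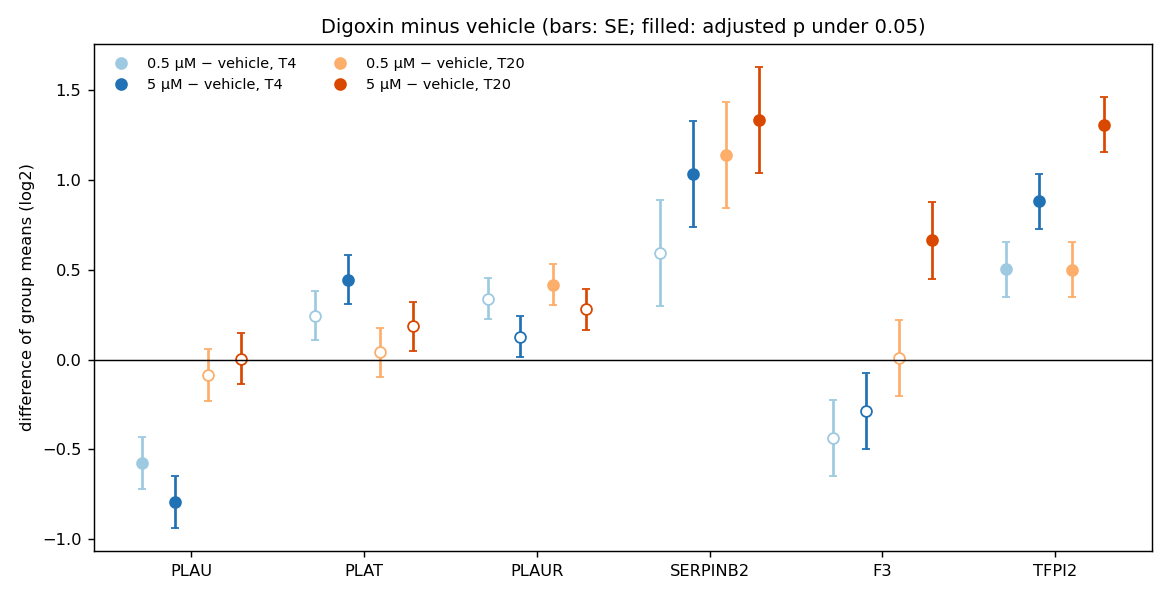
Difference of group means (digoxin minus vehicle, log2) for the 6 tested members in the 4 digoxin comparisons, with SE bars from the fit over 24 arrays and filled points for calls. TFPI2 is called in all 4 comparisons, PLAU in both at T4, and F3 in that of 5 µM at T20, where the poly-A scale gives -0.15.

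The doses were also set against each other. At T4, limma called 0 of the 6 members between 5 µM and 0.5 µM (0.442% of all genes were called), and 1 member had an unadjusted p under 0.05. At T20, TFPI2 was 0.81 ± 0.15 higher under 5 µM than under 0.5 µM (adjusted p = 0.00672), where 1.22% of all genes were higher and 1.23% lower. On the poly-A scale this was 0.44 (adjusted p = 0.108), and the call was lost in 4 of 13 other settings. F3 differed by 0.65 ± 0.21 at T20 with no overlap of the arrays, but was not called (adjusted p = 0.113, 95% interval 0.21 to 1.10). For SERPINB2 the doses differed by 0.44 ± 0.30 at T4 (95% interval -0.18 to 1.06) and 0.19 ± 0.30 at T20 (-0.43 to 0.81). PLAUR differed by -0.21 ± 0.11 at T4 (adjusted p = 0.490, 95% interval -0.45 to 0.02) and -0.14 ± 0.11 at T20 (adjusted p = 0.596). The T20 dose differences became 0.28 for F3, -0.18 for SERPINB2 and -0.51 for PLAUR on the poly-A scale, and none was called. Those at T4 became 0.36 for SERPINB2 and -0.28 for PLAUR, again not called.

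Whether the digoxin effect at T20 differed from that at T4 was tested as a difference of differences. For 5 µM limma called 0 of the 6 members (0.57% of all genes) and for 0.5 µM 0 of 6 (0.0085% of all genes). At an unadjusted p under 0.05 there were 2 members for 5 µM and 1 for 0.5 µM. F3 had 0.95 ± 0.30 for 5 µM (adjusted p = 0.198, 95% interval 0.32 to 1.58) and PLAU 0.80 ± 0.20 (adjusted p = 0.0858, 95% interval 0.37 to 1.23). The fall of PLAU at T4 and the rise of F3 at T20 were thus not shown to differ from the effect at the other time. Fitting only the groups compared called F3 (adjusted p = 0.0264), and leaving out 5 µM replicate 2 of T4 called PLAU (adjusted p = 0.0497). The poly-A control probe sets themselves differed by 0.46 in the 5 µM contrast, so the F3 and PLAU values depend on the scale used.

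**Figure D3:**
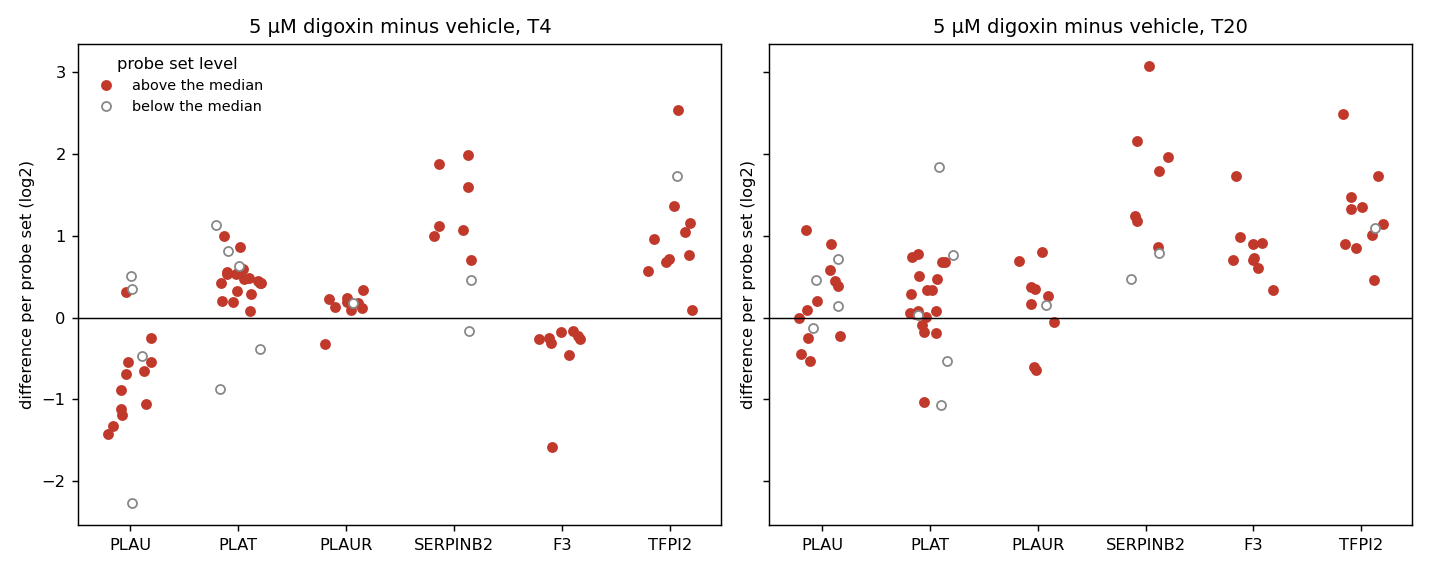
Difference under 5 µM digoxin minus vehicle (log2) of each probe set of the 6 tested members, at T4 and T20. The 9 probe sets of F3 lie below 0 at T4 and above 0 at T20, where the gene value is -0.15 on the poly-A scale, and the 11 of TFPI2 lie above 0 at both times.

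In untreated cells at T16 against T0, 5 of the 6 tested members fell and 0 rose, where 16.7% of all genes fell and 14.9% rose. SERPINB2 read 7.41, 7.72 and 7.14 at T16, against 9.08, 10.39 and 10.75 at T0, a difference of -2.66 ± 0.30 (adjusted p = 1.47e-06). T0 replicate 1 was the lowest of its group for this gene and still stood above every T16 array. F3 had 14.73, 15.51 and 14.26 at T16 and 16.85, 16.41 and 17.05 at T0, a difference of -1.94 ± 0.21 (adjusted p = 1.19e-06). PLAUR had 13.80, 14.01 and 13.64 at T16, against 15.12, 15.26 and 15.49 at T0 (-1.47 ± 0.11, adjusted p = 9.53e-09). For these genes of coagulation, inhibition and the receptor, no T16 array reached a T0 array. The protease genes did the same. PLAU had 7.81, 8.10 and 7.53 at T16 and 9.39, 9.15 and 9.22 at T0 (-1.44 ± 0.14, adjusted p = 3.67e-07). PLAT had 14.22, 14.38 and 14.16 at T16, against 15.53, 15.46 and 15.48 at T0 (-1.23 ± 0.14, adjusted p = 1.35e-06). TFPI2 overlapped, with 11.45, 11.88 and 11.88 at T16 and 12.29, 12.21 and 11.85 at T0 (-0.38 ± 0.15, adjusted p = 0.0673), and it was called without T0 replicate 3 (adjusted p = 0.0244). The 5 falls were called with each array left out and in each of the other settings run, the poly-A scale included (-2.88 for SERPINB2 and -1.47 for PLAT).

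In T20 vehicle cells against T16 untreated cells, where time and vehicle change together, 5 of the 6 rose and 0 fell, where 11.3% of all genes rose and 11.5% fell. SERPINB2 had 10.07, 10.23 and 9.53 in T20 vehicle, against 7.41, 7.72 and 7.14 at T16, a difference of 2.52 ± 0.30 (adjusted p = 7.39e-06). F3 rose by 1.69 ± 0.21 (adjusted p = 1.42e-05) and PLAUR by 0.71 ± 0.11 (adjusted p = 1.59e-04). The T20 vehicle arrays of all 5 genes lay above the T16 arrays. PLAU rose by 0.46 ± 0.14 (adjusted p = 0.0264) and TFPI2 by 0.48 ± 0.15 (adjusted p = 0.0277). The PLAU call was lost without T20 vehicle replicate 1 or 2 or T16 replicate 1 or 3 (adjusted p up to 0.155), and that of TFPI2 without T20 vehicle replicate 1 or 2 or T16 replicate 1 (up to 0.160). In other settings the PLAU call was lost in 6 of 13 and that of TFPI2 in 5 of 13. The SERPINB2 call was lost with the median of the probe sets (adjusted p = 0.0663), and that of PLAUR with a minimum change of 0.5. PLAT overlapped, with a difference of -0.20 ± 0.14 (adjusted p = 0.319; 0.30 on the poly-A scale).

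In T4 vehicle against T0 untreated cells, where time and vehicle again change together, TFPI2 rose by 0.84 ± 0.15 (adjusted p = 7.00e-04) and PLAUR fell, with a difference of -0.46 ± 0.11 (adjusted p = 0.00766; -0.30 on the poly-A scale, adjusted p = 0.376). Over all genes 8.59% rose and 8.94% fell. The PLAUR call was lost in 5 of 13 other settings and that of TFPI2 in 2 of 13. Between the vehicle groups, T20 against T4, 3 members fell and 0 rose, where 6.66% of all genes rose and 7.42% fell. PLAT had 14.24, 14.06 and 13.87 in T20 vehicle, against 15.61, 15.19 and 15.41 in T4 vehicle, a difference of -1.34 ± 0.14 (adjusted p = 1.72e-06). PLAU differed by -0.81 ± 0.14 (adjusted p = 9.24e-04) and TFPI2 by -0.74 ± 0.15 (adjusted p = 0.00313), and both calls were lost on the poly-A scale (adjusted p = 0.0530 and 0.0966). Each was lost in 3 of 13 other settings, that scale included. F3 was 0.03 ± 0.21 apart between the vehicles (95% interval -0.41 to 0.48) and SERPINB2 -0.34 ± 0.30 (-0.96 to 0.28).

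**Figure D4:**
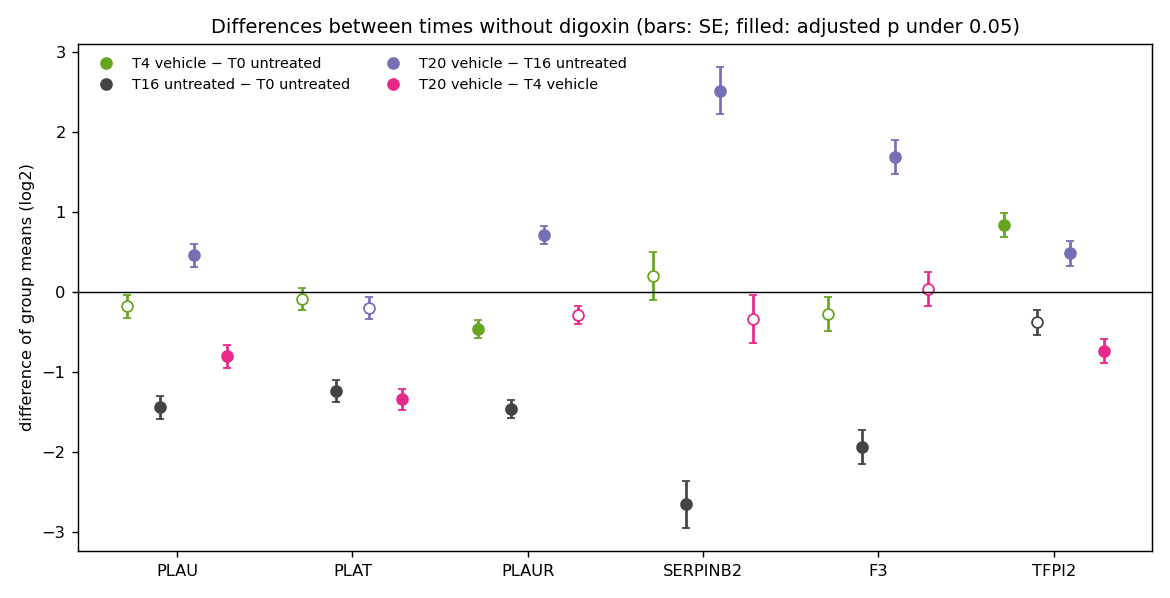
Difference of group means (log2, first-named group minus the second) of the 6 tested members between groups without digoxin, with SE bars and filled points for calls. T16 lies below T0 for 5 called members, and T20 vehicle lies above T16 for SERPINB2, F3, PLAUR, TFPI2 and PLAU.

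Across the 8 groups each member had its own order of levels. PLAU was highest at T0 (mean 9.26), then in T4 vehicle (9.08), and these overlapped neither with each other nor with the next group, while each later group, down to T16 at 7.81, overlapped with its neighbours. PLAUR was highest at T0 (15.29), and breaks without overlap followed 0.5 µM at T4 (15.17), 5 µM at T20 (14.81) and T20 vehicle (14.53), with T16 last at 13.82. PLAT formed 2 sets, the 4 groups of T0 and T4 at 15.84 to 15.40 and the 4 of T16 and T20 at 14.25 to 14.05 by group mean, with overlap between neighbours within each set and none between the sets. For SERPINB2 the 4 digoxin groups came first (11.31 to 10.87), then T4 vehicle, T0 and T20 vehicle (10.28 to 9.94), by group mean, and T0 replicate 3 (10.75) reached into the range of the digoxin arrays. T16 was last at 7.42 and below every other array. F3 was highest under 5 µM at T20 (17.19) and lowest at T16 (14.83), and every T16 array lay below every array of the other groups. T4 vehicle did not overlap with the digoxin groups of T4, whereas 0.5 µM at T20, which reached down to 16.29, overlapped with 5 µM at T4. TFPI2 was highest under 5 µM at T4 (13.84) and next under 5 µM at T20 (13.53), and T16 was lowest (11.74) but overlapped with T0. For THBD the 2 digoxin groups of T4 had the highest means (4.81 and 4.79), but 1 array under 0.5 µM at T20 read 4.90, above them.

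As a description over the 24 arrays, which share groups, SERPINB2 had its highest Pearson r among members with PLAUR (0.81), then TFPI2 (0.77) and F3 (0.75). PLAT and F3 had an r of 0.03, and PLAU and TFPI2 one of 0.05. In a pool of 10842 named genes, the genes most like SERPINB2 over the same arrays were FST (0.95), SERPINB8 (0.93) and EIF5A2 (0.93). For PLAT they were SLC7A2 (0.96), DNER (0.96) and MT1X (0.95), and for TFPI2 LAMA1 (0.95), E2F7 (0.95) and BIRC2 (0.94). PLAUR was most like GRPEL1 (0.94), PDCD1LG2 (0.92) and GTPBP4 (0.92). The genes nearest to PLAU were FHL2 (0.90), SNAR-E (0.88) and GTF3C4 (0.87), and to F3 TEX10, NABP1 and URB2 (0.89 each).

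Other genes of the pathway were read from a list of 65, of which 63 were measured and 34 tested. Under 5 µM digoxin 5 rose and 1 fell at T4 (17.6% called), and 9 rose and 2 fell at T20 (32.4%). Over all genes 22.1% and 26.1% were called in these comparisons. Under 0.5 µM 1 rose and 1 fell at T4 (5.88%, beside 9.76% of all genes), and 2 rose and 2 fell at T20 (11.8%, beside 10.8%). The median difference of the list was 0.07 and 0.11 for 5 µM at T4 and T20. On the poly-A scale, each rise under 5 µM at T20 described below was below 0 except that of MMP3.

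ANXA2, annexin A2, which binds plasminogen and PLAT at the cell surface, had the largest digoxin difference of the list. At T4 it had 14.20, 14.13 and 14.38 in vehicle, 13.26, 13.21 and 13.03 under 0.5 µM and 12.96, 13.16 and 12.97 under 5 µM. At T20 it had 14.54, 14.78 and 14.20 in vehicle, 13.43, 12.89 and 13.18 under 0.5 µM and 12.81, 12.37 and 12.77 under 5 µM. No digoxin array overlapped with vehicle of its time. The differences were -1.20 ± 0.16 and -1.86 ± 0.16 for 5 µM at T4 and T20 (adjusted p = 2.39e-05 and 8.06e-08), and -1.07 ± 0.16 and -1.34 ± 0.16 for 0.5 µM. All 4 were called on the poly-A scale and with each array left out. S100A10, the subunit that joins annexin A2, was not called with digoxin (-0.13 ± 0.12 under 5 µM at T20, adjusted p = 0.470), nor were ENO1 and PLGRKT, the other plasminogen-binding genes tested. Cross-hybridization with processed pseudogenes of ANXA2 was not tested.

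Among the serpins of the list, 1 of 3 tested rose under 5 µM at T4 and 2 at T20, where 9.18% and 12.9% of all genes rose. SERPINE2, protease nexin 1, an inhibitor of thrombin and of plasminogen activators, read 9.04, 8.90 and 8.79 under 5 µM at T20, against 8.40, 8.54 and 8.55 in vehicle. The difference was 0.42 ± 0.09 (adjusted p = 0.00220), but on the poly-A scale it was called lower (-0.41, adjusted p = 0.0162). SERPINB8, a serpin of the same clade as SERPINB2, read 14.16, 14.09 and 14.10 under 5 µM at T20 and 13.52, 13.61 and 13.77 in vehicle. Its difference was 0.48 ± 0.12 (adjusted p = 0.00603; -0.35 on the poly-A scale), and at T16 against T0 it fell, with a difference of -1.43 ± 0.12 (adjusted p = 3.88e-08). SERPINB8 was also the serpin that rose under 5 µM at T4, by 0.38 (0.02 on the poly-A scale). That T4 call was lost for 5 of the 6 arrays left out in turn, and in 6 of 13 other settings.

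Of the integrins and clearance receptors, 3 of 9 tested rose under 5 µM at T4 and 4 at T20, beside 9.18% and 12.9% of all genes. MRC2, a collagen receptor that associates with PLAUR, read 7.87, 8.01 and 8.09 under 5 µM at T20, against 7.27, 7.54 and 7.34 in vehicle. It rose in all 4 digoxin comparisons, by 0.61 ± 0.13 under 5 µM at T20 (adjusted p = 0.00128; -0.16 on the poly-A scale). Centred on the poly-A controls it was 0.07 under 5 µM at T4, and 0.16 and 0.06 under 0.5 µM at T4 and T20, with none called. The calls were lost in 5 and 3 of 13 other settings for 5 µM at T4 and T20, and in 8 and 7 for 0.5 µM. The other 3 calls of MRC2 were each lost without some of the 6 arrays compared, 3 arrays for 5 µM at T4 (vehicle replicates 1 and 2, 5 µM replicate 2; differences 0.33 to 0.48). For 0.5 µM at T4 they were all but 0.5 µM replicate 3 (differences 0.33 to 0.57), and at T20 vehicle replicates 1 and 3 and 0.5 µM replicates 1 and 2 (0.38 to 0.52). ITGB3, the integrin beta 3 subunit, rose by 0.51 ± 0.11 under 5 µM at T20 (adjusted p = 0.00196; -0.28 on the poly-A scale). VLDLR and LRP8, of the LDL receptor family, rose by 0.54 ± 0.16 and 0.42 ± 0.14 in the same comparison (adjusted p = 0.0164 and 0.0297; -0.30 and -0.38 on the poly-A scale). The VLDLR call was lost without vehicle replicate 2 or 5 µM replicate 1 (differences 0.40 to 0.66), and that of LRP8 without vehicle or 5 µM replicate 3 (0.29 to 0.51) and in 6 of 13 other settings. LRP8 also rose under 5 µM at T4, by 0.41 (0.02 on the poly-A scale). That T4 call was lost for 4 of the 6 arrays left out in turn, and in 6 of 13 other settings. LRP1, which clears complexes of activator and inhibitor, was not called with digoxin (0.13 ± 0.15 under 5 µM at T20, adjusted p = 0.577).

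**Figure D5:**
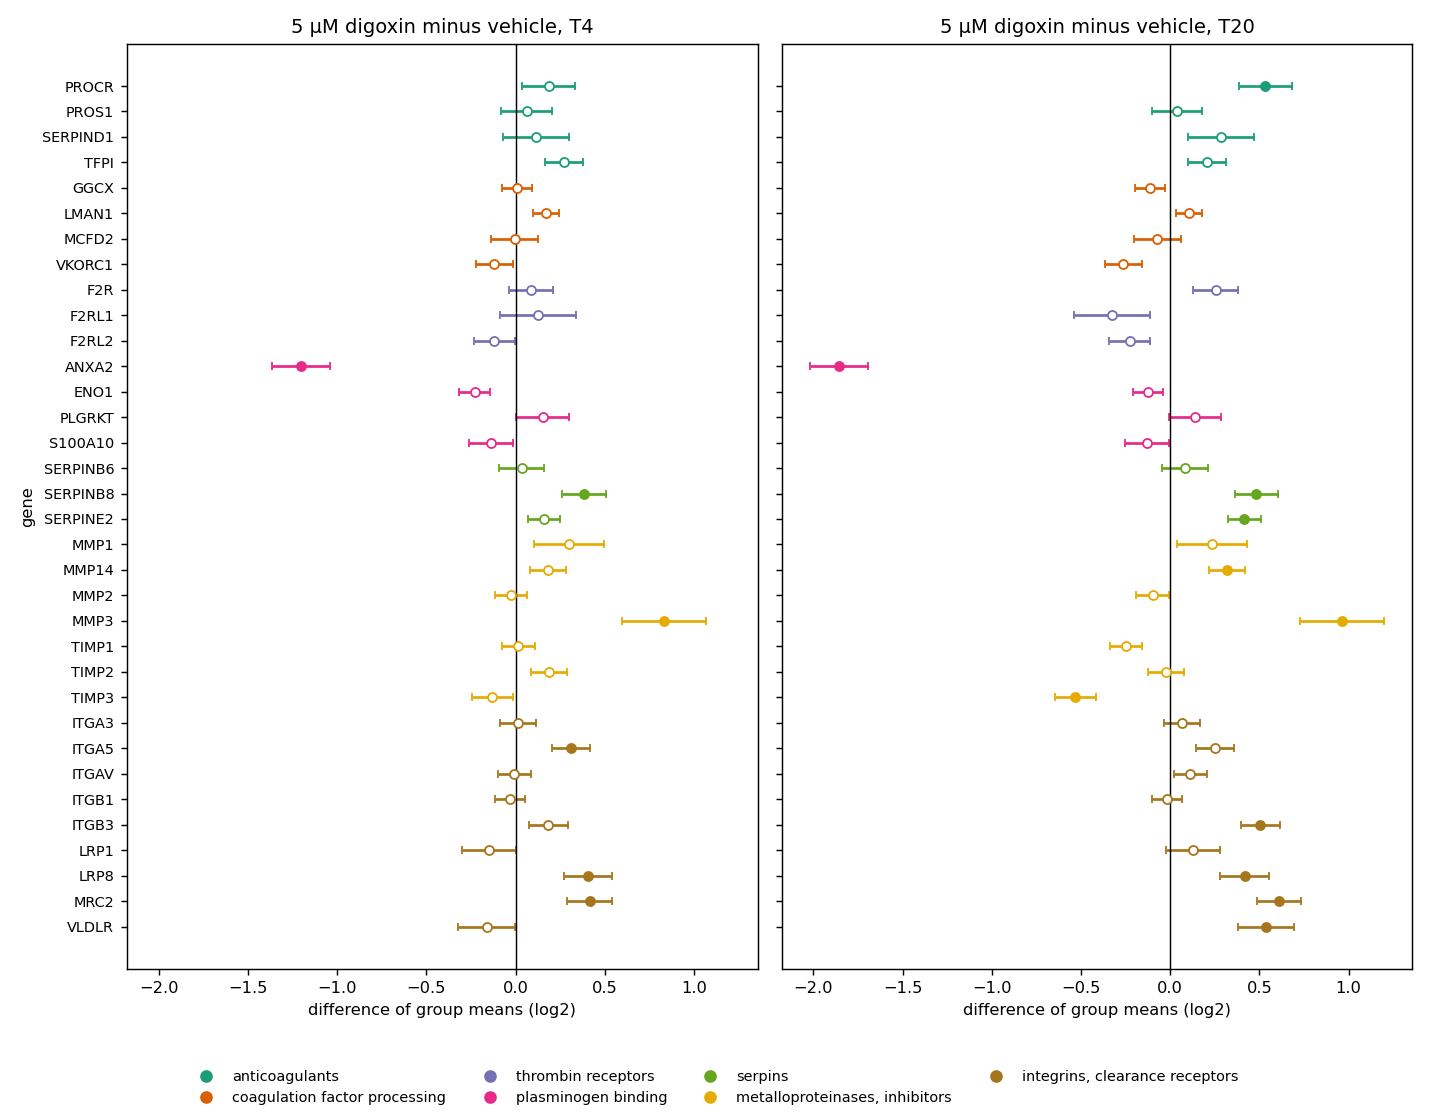
Difference of group means under 5 µM digoxin minus vehicle (log2) of the 34 tested pathway genes, at T4 and T20, grouped by role, with SE bars and filled points for calls. ANXA2 lies farthest below 0 at both times and MMP3 farthest above.

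Among metalloproteinases and their inhibitors, 1 of 7 tested rose under 5 µM at T4, and 2 rose and 1 fell at T20. Of all genes 9.18% rose at T4, and 12.9% rose and 13.2% fell at T20. MMP3, stromelysin 1, read 9.60, 8.98 and 9.21 under 5 µM at T4, against 8.35, 8.51 and 8.44 in vehicle. At T20 it read 8.52, 8.74 and 8.65 under 5 µM and 7.64, 7.75 and 7.63 in vehicle. The 5 µM arrays stood above vehicle at both times. It rose by 0.83 ± 0.24 at T4 and 0.96 ± 0.24 at T20 (adjusted p = 0.0157 and 0.00504), with 0.44 and 0.20 on the poly-A scale, neither called. The T4 call of MMP3 was lost without vehicle replicate 1 or 5 µM replicate 1 (differences 0.66 to 0.98). MMP14, a membrane-bound metalloproteinase, rose by 0.32 ± 0.10 under 5 µM at T20 (adjusted p = 0.0240), but on the poly-A scale it was called lower (-0.51, adjusted p = 0.0112). The rise was lost in 7 of 13 other settings and also without replicate 2 or 3 of either group (differences 0.28 to 0.36). TIMP3, an inhibitor of metalloproteinases, fell at T20, with a difference of -0.53 ± 0.12 (adjusted p = 0.00196; -1.35 on the poly-A scale).

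On the coagulation side, 4 of 18 coagulation genes passed the filter, and 0 were called under 5 µM. Of all genes 9.18% rose and 12.9% fell at T4, and 12.9% rose and 13.2% fell at T20. GGCX, the carboxylase that modifies vitamin K-dependent clotting factors, fell under 0.5 µM at T20, with a difference of -0.32 ± 0.08 (adjusted p = 0.0191), a call lost without vehicle replicate 2 or 3 or 0.5 µM replicate 1 or 3 (differences -0.39 to -0.28). Of 4 tested anticoagulants, PROCR, the endothelial protein C receptor, rose under 5 µM at T20. It read 11.78, 11.80 and 12.24 under 5 µM, against 11.36, 11.38 and 11.49 in vehicle, a difference of 0.53 ± 0.15 (adjusted p = 0.0121; -0.25 on the poly-A scale), lost without 5 µM replicate 3 (differences 0.38 to 0.61). The 3 tested thrombin receptors were not called with digoxin. In T16 against T0, 10 of the 34 pathway genes rose and 11 fell (61.8% called, beside 31.6% of all genes).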

How the data were processed

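The table held 1 log2 value per probe set and array, which the authors made by Robust Multi-Average normalization in Galaxy tools, per the series' design text; the submitters' processing notes also name limma, and its version is not given in the sources used here. As deposited, the log2 values ran from 1.28 to 19.93 over 352859 probe sets, so a further unstated transformation is possible, and differences are on that scale. From these, arrays were quantile normalized and the probe sets with 1 gene symbol in the platform annotation (259224) were combined by median polish into 22260 genes. The 11764 genes whose highest group mean was at least 6.00 (the median gene value) were tested. One model of 8 groups was fitted with lmFit and eBayes in limma 3.58.1 (R 4.3.3), with Benjamini-Hochberg adjustment and a threshold of 0.05. The fit was tested on simulated data for 5 µM against vehicle at T4 (2076 genes), where it recovered 78% of changes of 0.5 and 96% of changes of 1, and 6.67% of calls were false. In that simulation probe sets varied independently, and all probe sets of a changed gene shifted by the same amount. Probe sets of a gene did not move alike in the data, so these rates need not hold for these arrays. The number of arrays limits the precision. Members and gene lists were chosen with earlier results of these data known. Pathway genes are named by role, up to 4 a role with a digoxin call; S100A10, ENO1, PLGRKT and LRP1 were named after their values were seen. Alternatives covered the summary of probe sets, normalization, filter, variance model, replicate block, samples fitted, a minimum change of 0.5 and each array left out; the probe sets above the median, median centring and the shared SERPINB2 probe sets were chosen after seeing the data. The main fit did not pair samples by replicate number, and whether these numbers mark pairs is not settled. Promoter motifs were searched in RefSeq windows with Python 3.11.15.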

Additional observations from a re-analysis of the deposited data

How the results depend on the processing

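Over 13 other settings, and 14 for SERPINB2, 854 of 948 differences of the members kept their side of the threshold without a called value changing sign, 78 calls were lost, 11 were gained and 5 values reversed, and 32 more changed sign where neither value was called. All 5 reversals came on the poly-A scale: PLAU -0.82, PLAUR -0.53, PLAT -0.63 and F3 -0.15 under 5 µM at T20, and PLAUR -0.021 under 0.5 µM at T20. The cause of these changes was not tested. Counts of members called are given next. With the median of the probe sets they were 0 for 5 µM and 0 for 0.5 µM at T4, 0 for 0.5 µM at T20, 0 between doses at T20, 0 for T4 vehicle against T0, 2 for T20 vehicle against T16 and 1 between vehicles. With the mean of the probe sets they were 1 for 0.5 µM at T4 and 1 for T4 vehicle against T0. On values as deposited they were 1 for 0.5 µM at T4 and 3 for T20 vehicle against T16. On the poly-A scale they were 2 for 5 µM and 1 for 0.5 µM at T4, 0 for 0.5 µM at T20, 0 between doses at T20, 1 for T4 vehicle against T0 and 1 between vehicles. With no filter, and so more genes adjusted over, they were 1 for 0.5 µM at T4, 1 for 0.5 µM at T20 and 3 for T20 vehicle against T16. Fitting only the groups compared, with fewer arrays, gave 0 for 0.5 µM at T20, 0 between doses at T20, 1 for the difference of 5 µM effects, 1 for T4 vehicle against T0 and 3 for T20 vehicle against T16. A minimum change of 0.5 gave 0 for 5 µM and 0 for 0.5 µM at T4, 1 for 5 µM and 0 for 0.5 µM at T20, 0 between doses at T20, 0 for T4 vehicle against T0, 2 for T20 vehicle against T16 and 1 between vehicles. For 0.5 µM at T4, cyclic loess, probe sets above the median and median centring each gave 1. Deviations of 84 same-number pairs correlated at -0.17 to 0.17 (median -0.01), and 6 of 24 arrays correlated best with their own number. These values show little shared deviation and cannot show whether the samples were paired by design. The replicate block gave 1 member called for 0.5 µM at T4 in place of 2. With each array left out, counts ranged from 2 to 4 for 5 µM and 0 to 1 for 0.5 µM at T4, 2 to 3 for 5 µM and 0 to 3 for 0.5 µM at T20, 0 to 0 and 1 to 1 between doses at T4 and T20, 0 to 1 and 0 to 0 for the differences of effects of 5 µM and 0.5 µM, 2 to 2 for T4 vehicle against T0, 5 to 6 for T16 against T0, 3 to 5 for T20 vehicle against T16 and 3 to 3 between vehicles. Over all genes, the calls for 5 µM at T4 and T20 numbered 2594 and 3067, against 851 and 1363 with the median of the probe sets, 3868 and 10263 on the poly-A scale and 220 and 314 with a minimum change of 0.5. Of the calls for 5 µM at T4, 41.6% were higher, against 3.28% on the poly-A scale and 58.8% with median centring; at T20 the shares were 49.3% and 1.04% on the poly-A scale. Genes near background, THBD among them, are limited by signal.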
